A study of Mus musculus with 30 samples.

Results

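Chemokines are small secreted proteins that attract leukocytes, and they act through receptors that couple to G proteins. Atypical receptors (Ackr genes) bind chemokines without that coupling and remove or transport them. In a fracture, CXC ligands such as Cxcl1 and Cxcl5 attract neutrophils, CC ligands such as Ccl2 and Ccl7 attract monocytes, and Cxcl12 from mesenchymal cells retains hematopoietic and progenitor cells that carry Cxcr4. The genes described here are the protein-coding mouse genes whose symbol is Ccl, Cxcl, Ccr, Cxcr or Ackr followed by a digit, or Cx3cl1, Cx3cr1, Xcl1 or Xcr1. There were 65 such genes, 42 ligands and 23 receptors, among the 55416 gene IDs counted.

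RNA came from the callus of a non-stabilized closed fracture of the left tibia in young adult mice of both sexes, with 1 library per mouse and 30 mice. Per the paper, the 3-dpf tissue was cut out around the fracture site, while at 6-dpf the whole callus was used. P-Apex1KO mice carry Prrx1-Cre and the conditional Apex1 allele in both copies (Prrx1-Cre;Apex1 C/C). Prrx1-Cre is active in limb mesenchyme, so leukocytes and vessels of the callus are not its target, though Apex1 was not measured by cell type here. Per the paper, WT denotes littermates that were Prrx1-Cre;Apex1 C/+, Apex1 C/C or Apex1 C/+. All of these carry the conditional allele, and those with Cre can lose that copy in limb mesenchyme. The labels give WT alone and do not tell these genotypes apart. At 3 days post fracture (3-dpf) there were 4 WT and 4 P-Apex1KO mice, at 6-dpf 5 and 3, at 10-dpf 4 and 3, and at 14-dpf 4 and 3. At 14-dpf all 3 P-Apex1KO mice were female and only WT replicate 1 was, so a genotype value adjusted for sex rests on that mouse at this day.

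Levels are given as CPM, counts divided by the effective size of each library on 1 scale over the 30 libraries, whose totals ran from 18334389 to 43111491 counts. Apex1 was at 26.5 to 33.1 CPM in the 4 WT libraries at 3-dpf, and at 18.4, 29.1, 27.6 and 34.6 CPM in the 4 libraries labelled P-Apex1KO, so these groups overlapped. It fell by 0.67 at 6-dpf (log2, SE 0.11, edgeR adjusted p = 0.0071) and by 0.65 at 10-dpf (SE 0.13, adjusted p = 0.0278). The call at 10-dpf was lost without the sex term (adjusted p = 0.0791), with the replicate block (adjusted p = 0.14) and without WT replicate 1 or any 1 of the 3 P-Apex1KO mice (adjusted p from 0.0571 to 0.104). At 14-dpf it was 24.0 ± 3.37 CPM in WT (SD, n = 4) and 15.9 ± 2.35 CPM in P-Apex1KO (SD, n = 3) with no overlap, while the sex-adjusted difference of -0.29 did not pass (adjusted p = 0.367). The label of callus was checked with the cartilage genes Col2a1, Acan, Sox9, Col9a1, Matn1 and Comp, whose summed level in WT rose from 311 to 337 CPM at 3-dpf to between 25480 and 47330 CPM at 6-dpf. In bulk tissue, fewer cells of a type and less RNA per cell cannot be told apart.

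Of the 65 genes, 44 passed the filter on low counts at every day, 9 at some days and 12 at none, of which 6 had no count in any library. The latter were Ccl26, Ccl27b, Ccl21b, Ccl21d, Ccl21e and Ccl21f. Several of these are near-identical copies of Ccl21a or Ccl27a, and only uniquely mapped reads were counted, so the level of Ccl21a is uncertain. Per kilobase of exon, the mean level over all 30 libraries was 96.1 CPM per kb for Cxcl12, 58.5 for Cxcr4, 56.1 for Ccl6, 54.6 for Ccl8, 52.1 for Cxcl14 and 36.1 for Ccl9. The order differed between groups. The mean of Cxcl12 was the highest of the members in the 4 WT groups and in P-Apex1KO at 10- and 14-dpf. In P-Apex1KO at 6-dpf Ccl8 (146.6 CPM per kb) and Cxcl14 (94.7) lay above Cxcl12 (82.2), and in the 3-dpf libraries labelled P-Apex1KO Ccl6 (145.8), Cxcl14 (124.8) and Ccl8 (88.8) lay above it (78.8).

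Many chemokine genes lie in runs on a chromosome. Sequences before the start sites of 3 of them are shown because Cxcl9 and Cxcl10, adjacent on chromosome 5, and Ccl2, in a run of CC ligands on chromosome 11, carry the differences described below. Each is the 250 bases upstream of the start of the canonical GENCODE transcript in GRCm39, read 5′ to 3′ on the gene's strand. Capitals mark matches, on either strand, to the kappa-B motif, to the GAS motif TTCNNNGAA or to the interferon-stimulated response element (ISRE).
Cxcl10, chr5:92496749-92496998, minus strand: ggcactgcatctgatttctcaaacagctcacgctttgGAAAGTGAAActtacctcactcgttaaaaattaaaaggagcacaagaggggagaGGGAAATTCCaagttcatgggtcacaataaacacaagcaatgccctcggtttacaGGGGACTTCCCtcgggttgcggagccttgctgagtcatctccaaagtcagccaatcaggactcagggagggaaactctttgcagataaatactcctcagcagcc
Cxcl9, chr5:92475946-92476195, minus strand: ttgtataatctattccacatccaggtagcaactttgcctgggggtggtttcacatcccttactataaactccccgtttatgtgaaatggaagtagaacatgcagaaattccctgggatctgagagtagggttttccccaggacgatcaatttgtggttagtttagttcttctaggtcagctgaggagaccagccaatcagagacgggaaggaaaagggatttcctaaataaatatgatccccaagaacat
Ccl2, chr11:81926147-81926396, plus strand: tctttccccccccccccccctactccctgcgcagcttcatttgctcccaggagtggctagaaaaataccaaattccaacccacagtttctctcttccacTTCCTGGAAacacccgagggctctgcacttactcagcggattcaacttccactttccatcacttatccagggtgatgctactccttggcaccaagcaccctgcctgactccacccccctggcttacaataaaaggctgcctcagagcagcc
Cxcl10 held 3 kappa-B matches, a pair of which overlap, and 1 ISRE match. Ccl2 held 1 GAS match, and no match lay in the window of Cxcl9. A kappa-B match lay in 7.62% of the 21770 windows of protein-coding genes, a GAS match in 7.70% and an ISRE match in 3.32%. Over the 65 members the shares were 21.5%, 10.8% and 4.62%. Of the 14 members with a kappa-B match, Cxcl1, Cxcl2, Cxcl3 and Cxcl5 lie in 1 run on chromosome 5. Over the 21 members higher at 6-dpf, which the counts described below chose, the shares were 14.3%, 23.8% and 9.52% (3, 5 and 2 members). Those with a GAS match were Ccl2, Ccl11, Ccl12, Ccl24 and Cxcl14. Of these, Ccl2, Ccl11 and Ccl12 lie in 1 run on chromosome 11, and no test of these shares was made.

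The first question was how the family changes in WT as the callus leaves the inflammatory phase. The tissue taken differed between 3- and 6-dpf, so time and dissection cannot be told apart in this comparison. From 3- to 6-dpf, 18 of 51 tested members fell and 2 rose, where 15.1% of all 20468 genes fell and 15.4% rose (edgeR, adjusted p under 0.05). The median log2 change of the members was -0.55, against -0.03 over all genes. Of 6 tested neutrophil-attracting ligands and receptors 4 fell. Cxcl3 fell by 4.92 (log2, SE 0.49), Cxcl1 by 3.36 (SE 0.59), Cxcl2 by 2.79 (SE 0.57) and Cxcl5 by 2.65 (SE 0.15), while their receptor Cxcr2 did not pass (-0.39, adjusted p = 0.131). Cxcl3 was at 0.846 to 3.30 CPM at 3-dpf and at 0.0313 to 0.0987 CPM at 6-dpf. With so few counts at 6-dpf, the size of its fall is uncertain. Of the monocyte-attracting group, Ccl7 fell by 3.05 (SE 0.25), Ccl2 by 2.46 (SE 0.29) and their receptor Ccr2 by 1.53 (SE 0.19). Ccl8, listed in the same group, stood at 29.5 ± 8.58 CPM (SD, n = 4) at 3-dpf and 29.1 ± 4.42 CPM (SD, n = 5) at 6-dpf.

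**Figure D1:**
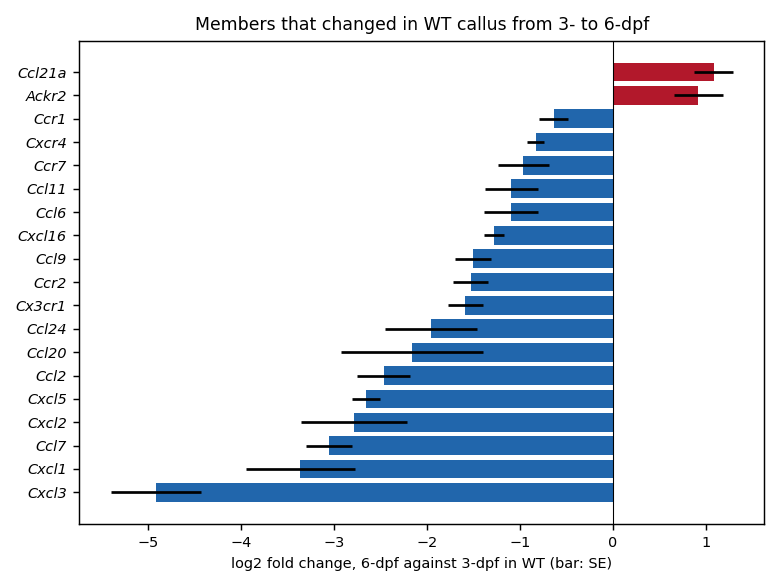
Log2 fold change from 3- to 6-dpf in WT callus for 19 of the 20 members past the threshold (bars: estimate, thin lines: SE). Those that fell are led by Cxcl3, Cxcl1 and Ccl7, and the 2 that rose are Ccl21a and Ackr2.

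Other members that fell in WT were Ccl6, Ccl9, Ccl11, Ccl20, Ccl24, Cxcl16, Ccr1, Ccr7, Cx3cr1 and Cxcr4. Ccl20 had low means of 0.306 CPM at 3-dpf and 0.0675 CPM at 6-dpf. Its call was lost in 8 of the 16 fits that each left out 1 mouse. The lymphoid ligand Ccl21a rose by 1.08 (SE 0.21), and Ackr2, a scavenger of inflammatory CC ligands, rose by 0.92 (SE 0.26). The number that rose was 1 without WT replicate 3 of 3-dpf. Macrophage markers moved with these genes. Of 8 such markers 7 fell, and their summed level ran from 1217 to 1754 CPM at 3-dpf and from 693 to 881 CPM at 6-dpf. Of 5 dendritic cell markers 4 fell, while 6 of 6 chondrocyte, 5 of 6 osteoblast and 4 of 6 endothelial markers rose. Their part in the fall of the chemokines was not tested.

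From 10- to 14-dpf in WT, 3 of 45 tested members (6.67%) rose and 0 fell, where 6.19% of all genes rose and 4.92% fell. The share of members that rose is thus near that of all genes. Cxcl12 rose by 1.42 (log2, SE 0.26, adjusted p = 0.00437), from 705, 603, 530 and 659 CPM at 10-dpf to 1957, 1386, 1458 and 1684 CPM at 14-dpf. Ccr1, a receptor of Ccl6 and Ccl9 on myeloid cells, rose by 0.87 (SE 0.16), and Ackr4, a scavenger of Ccl19 and Ccl21, rose by 0.75 (SE 0.15). The number that rose was 5 without WT replicate 3 of 10-dpf. Of 6 osteoclast markers 5 rose beside these genes (median 1.33), with sums of 1777 to 4437 CPM at 10-dpf and 7483 to 8591 CPM at 14-dpf. All 6 chondrocyte markers fell (median -3.07), from sums of 13300 to 36170 CPM to sums of 860 to 5023 CPM, and the part of these cells was not tested. The 6- and 10-dpf libraries carry different kinds of names and were not compared.

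The second question was how the family differs between genotypes at each day. At 3-dpf no member passed by edgeR, as for every gene tested (0.0% lower and 0.0% higher of 19866 genes). At an unadjusted edgeR p under 0.05, 1216 genes passed, among them 11 of the 51 tested members. The median log2 fold change of the 51 was 0.29, against -0.003 over all genes, with 36 above 0 and 15 below. DESeq2 called 85 genes, 5 of them members that were higher. Cxcl10, a ligand of Cxcr3 that interferon induces, was at 4.78, 3.42, 4.33 and 4.32 CPM in WT and at 29.4, 43.3, 20.7 and 4.31 CPM in the libraries labelled P-Apex1KO. Its fold change of 2.47 (log2, SE 0.65) did not pass (edgeR adjusted p = 0.768), and 3 of those 4 libraries lay above all WT libraries. The P-Apex1KO replicate 1 library stood apart at this day, with a summed level of 8 neutrophil markers of 884 CPM against 4982 to 8289 CPM in the other 3. Without it 0 members passed, and 1 passed without P-Apex1KO replicate 4.

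At 6-dpf, 21 of 50 tested members were higher in P-Apex1KO callus and 0 were lower. Over all 20260 genes, 5.31% were higher and 5.61% lower. The median log2 fold change of the members was 0.84, against 0.01 over all genes. The 21 comprised 14 of 29 tested ligands and 7 of 21 tested receptors. In 20 of them no P-Apex1KO mouse overlapped a WT mouse, the exception being Cxcr6. The call picked these members in the same mice, so the separation is no added support. The share of all genes without overlap was not counted.

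**Figure D2:**
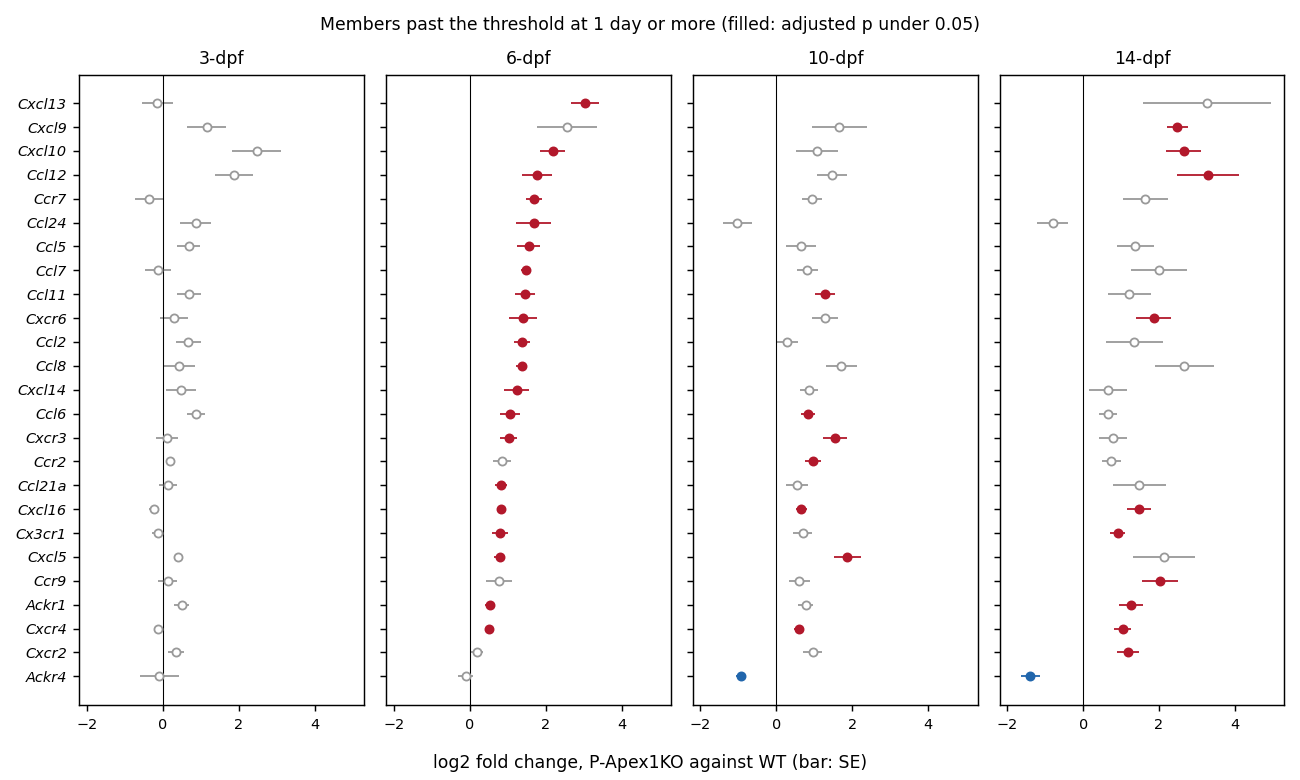
Log2 fold change of P-Apex1KO against WT at each day for all but 1 of the members past the threshold at 1 day or more (points: estimate, lines: SE, filled: adjusted p under 0.05). Filled points are absent at 3-dpf, number 20 at 6-dpf and are all to the right of 0 except Ackr4 at 10- and 14-dpf.

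The monocyte-attracting ligands were all higher at 6-dpf. Ccl7 was at 6.85, 7.42, 6.41, 7.99 and 8.42 CPM in WT and at 17.7, 19.9 and 26.1 CPM in P-Apex1KO, a difference of 1.49 (log2, SE 0.14, edgeR adjusted p = 0.000623). Ccl8 was at 31.5, 35.6, 26.5, 27.1 and 24.6 CPM in WT and at 75.6, 87.0 and 64.0 CPM in P-Apex1KO (1.37, SE 0.14, adjusted p = 0.000973). The lowest P-Apex1KO value of each lay above every WT value. Ccl12 was at 2.91, 1.24, 1.62, 0.658 and 1.71 CPM in WT and at 3.76, 5.60 and 4.48 CPM in P-Apex1KO (1.77, SE 0.40, adjusted p = 0.0222). The CC ligand Ccl2 was at 4.75, 4.33, 3.82, 6.31 and 5.10 CPM in WT and at 10.1, 10.8 and 19.3 CPM in P-Apex1KO (1.38, SE 0.22, adjusted p = 0.00553). These groups were also separate. Ccr2, the receptor listed with this group, was at 138, 109, 112, 91.1 and 73.4 CPM in WT and at 156, 154 and 258 CPM in P-Apex1KO, with no overlap. It did not pass (0.85, SE 0.25, adjusted p = 0.0576).

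Among the interferon-inducible ligands, Cxcl10 was at 4.19, 2.54, 2.18, 2.17 and 5.66 CPM in WT and at 12.4, 16.8 and 10.7 CPM in P-Apex1KO at 6-dpf (2.18, SE 0.33, adjusted p = 0.00454). Cxcr3, its receptor on T and NK cells, was at 2.72, 1.86, 1.81, 2.34 and 2.98 CPM in WT and at 4.55, 4.17 and 4.84 CPM in P-Apex1KO (1.03, SE 0.22, adjusted p = 0.0187). Neither gene overlapped. Cxcl9, the neighbouring gene of Cxcl10, was at 5.00, 2.80, 3.56, 3.12 and 29.3 CPM in WT and at 36.9, 30.2 and 26.3 CPM in P-Apex1KO. WT replicate 5 reached the P-Apex1KO range, and Cxcl9 did not pass (2.56, SE 0.79, adjusted p = 0.0882).

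Cxcl13, which draws B cells into follicles, had the largest fold change of the 21 members called at 6-dpf at a low level. It was at 0.469, 0.391, 0.290, 0.197 and 0.149 CPM in WT and at 2.80, 1.98 and 2.38 CPM in P-Apex1KO (3.04, SE 0.36, adjusted p = 0.00167). Ccr7, the receptor of Ccl19 and Ccl21 on dendritic cells and T cells, was at 3.38, 1.79, 3.14, 1.64 and 3.87 CPM in WT and at 8.37, 5.54 and 7.94 CPM in P-Apex1KO (1.69, SE 0.21, adjusted p = 0.00221). Cxcr5, the receptor of Cxcl13, was at 3.53, 1.20, 3.80, 1.02 and 2.87 CPM in WT and at 5.61, 1.49 and 5.32 CPM in P-Apex1KO, with overlap, and did not pass (1.23, SE 0.40, adjusted p = 0.0774). Ccl21a, a ligand of Ccr7, was at 10.5, 8.49, 10.5, 9.73 and 7.94 CPM in WT and at 21.3, 14.6 and 11.8 CPM in P-Apex1KO, with no overlap (0.83, SE 0.16, adjusted p = 0.0138).

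Ccl5, a ligand made by T and NK cells, was at 4.28, 3.29, 3.87, 2.99 and 1.38 CPM in WT and at 9.64, 8.65 and 8.87 CPM in P-Apex1KO (1.55, SE 0.30, adjusted p = 0.0123). It was separate between genotypes. The eosinophil ligand Ccl11 was at 3.88, 2.18, 2.56, 2.04 and 2.24 CPM in WT and at 6.36, 8.16 and 5.20 CPM in P-Apex1KO (1.46, SE 0.26, adjusted p = 0.00838). Ccl24, which shares its receptor Ccr3, was at 0.313, 0.391, 0.145, 0.164 and 0.484 CPM in WT and at 0.820, 0.932 and 1.08 CPM in P-Apex1KO (1.68, SE 0.46, adjusted p = 0.0437). Neither ligand overlapped. Ccr3 itself was at 17.2, 13.1, 10.6, 6.64 and 11.3 CPM in WT and at 15.6, 10.96 and 16.9 CPM in P-Apex1KO and did not pass (0.42, SE 0.27, adjusted p = 0.374).

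Other members called at 6-dpf were Ccl6, Cxcl5, Cxcl14, Cxcl16, Cxcr4, Cxcr6, Cx3cr1 and Ackr1, with log2 fold changes from 0.52 to 1.41. Cxcl16, a transmembrane ligand of Cxcr6, was at 27.2, 31.6, 25.3, 38.4 and 27.3 CPM in WT and at 52.7, 51.4 and 58.7 CPM in P-Apex1KO (0.82, SE 0.10, adjusted p = 0.00179). The count of 21 fell to 10 without P-Apex1KO replicate 1, and to 12 without WT replicate 2 or without WT replicate 4. In the 8 fits that each left out 1 mouse, the call of Ccl24 was lost in 7. Those of Ccl6, Cxcl14, Cx3cr1 and Cxcr6 were lost in 6, and that of Ackr1 in 5. Every other call was lost in 3 or fewer. Scaling by library size alone moved the median of all genes by 0.20 and called 29 members, 0 of them lower.

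**Figure D3:**
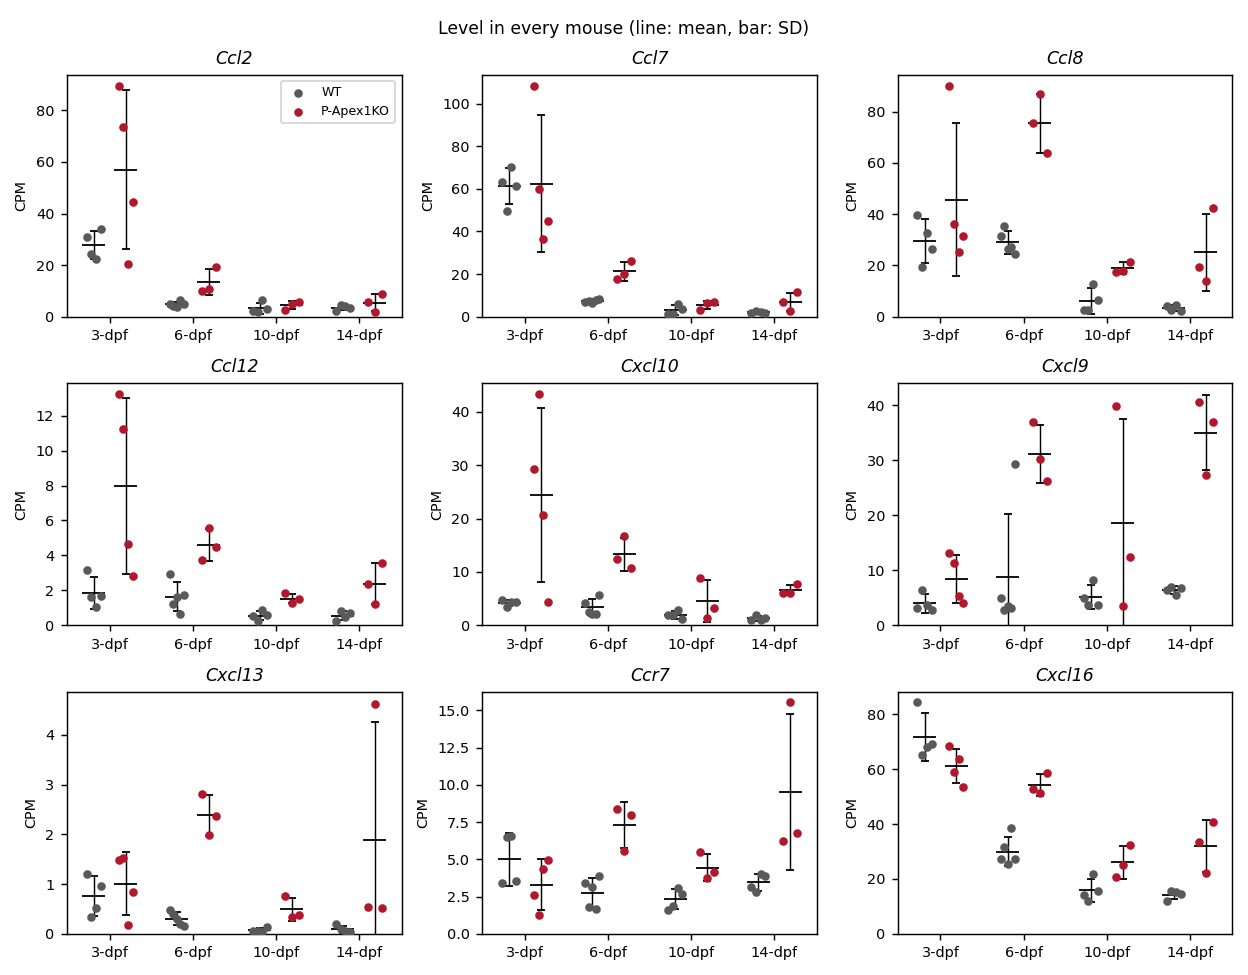
CPM of 8 ligands and the receptor Ccr7 in every mouse by day (gray: WT, red: P-Apex1KO, line: mean, bar: SD, cut at 0). At 6-dpf the red points lie above every gray point in each panel except Cxcl9, where WT replicate 5 is at 29.3 CPM.

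Markers of leukocytes moved with these members at 6-dpf. Of 8 macrophage markers 5 were higher, with a summed level of 693 to 881 CPM in WT and 1188 to 1371 CPM in P-Apex1KO. Of 8 T and NK cell markers 5 were higher, with sums of 35.7 to 48.3 CPM and 47.7 to 71.8 CPM. Of 8 neutrophil markers 0 passed. Skeletal muscle markers were also higher, 6 of 7, with sums of 2534 to 4535 CPM in WT and 5778 to 13610 CPM in P-Apex1KO, while all 6 chondrocyte markers were lower. Of 6 osteoblast markers 5 were lower, with sums of 38130 to 53550 CPM in WT and 17650 to 27770 CPM in P-Apex1KO, and 2 of 3 adipocyte markers were higher. Of 6 B cell markers 1 was called higher and all 6 had fold changes above 0 at an unadjusted p under 0.05, with sums that overlapped between the genotypes. No marker of these lists was at 0 in every library, and their part in the chemokine differences was not tested.

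The genotype difference changed from 3- to 6-dpf in 3 of 51 tested members (1.3% of all genes). Its change was 2.08 for Ccr7 (log2, SE 0.41, adjusted p = 0.022), 1.13 for Cxcl16 (SE 0.16, adjusted p = 0.00289) and 0.68 for Cxcr4 (SE 0.14, adjusted p = 0.027). The mean level of Cxcl16 in WT fell from 71.7 to 29.98 CPM, and in the libraries labelled P-Apex1KO from 61.1 to 54.3 CPM. These changes rest on the labels of the 3-dpf libraries, whose Apex1 levels overlapped between the genotypes. The tissue taken also differed between 3- and 6-dpf. The count was 1 without WT replicate 2, WT replicate 3 or P-Apex1KO replicate 3 of 3-dpf or without P-Apex1KO replicate 3 of 6-dpf. It was 7 without P-Apex1KO replicate 1 of 3-dpf and 5 without WT replicate 1 of 6-dpf. From 10- to 14-dpf the difference changed in 0 of 45 members by edgeR and in 1 by DESeq2 (0.436% of all genes by edgeR, where 2577 genes had an unadjusted p under 0.05), and in 3 without P-Apex1KO replicate 2 of 14-dpf.

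At 10-dpf, 7 of 44 tested members were higher and 1 was lower, where 3.01% of all genes were higher and 3.44% lower. The 7 were Ccl6, Ccl11, Cxcl5, Cxcl16, Ccr2, Cxcr3 and Cxcr4. Cxcl5 was at 0.594, 1.28, 2.36 and 1.08 CPM in WT and at 2.58, 8.66 and 5.95 CPM in P-Apex1KO (1.87, SE 0.35, adjusted p = 0.0252). Cxcr3 was at 1.08, 0.868, 1.07 and 1.21 CPM in WT and at 3.99, 1.78 and 3.42 CPM in P-Apex1KO (1.55, SE 0.31, adjusted p = 0.0281). The genotypes were separate for both genes. Cxcr2, the receptor of Cxcl5, was at 19.1, 16.4, 36.4 and 33.1 CPM in WT and at 46.9, 69.8 and 37.8 CPM in P-Apex1KO and did not pass (0.95, SE 0.25, adjusted p = 0.0738). Cxcl10 was at 1.94, 1.97, 2.94 and 1.12 CPM in WT and at 8.89, 1.35 and 3.14 CPM in P-Apex1KO, with overlap (1.07, SE 0.54, adjusted p = 0.285). Ccl11 was at 0.971, 0.822, 2.09 and 1.66 CPM in WT and at 3.39, 3.09 and 3.80 CPM in P-Apex1KO (1.28, SE 0.27, adjusted p = 0.0315). Ccr2 was at 74.9, 52.2, 101 and 90.3 CPM in WT and at 175, 146 and 144 CPM in P-Apex1KO (0.97, SE 0.20, adjusted p = 0.0412).

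Ccl6 was at 24.1, 25.8, 53.0 and 43.7 CPM in WT and at 62.2, 70.8 and 63.4 CPM in P-Apex1KO at 10-dpf (0.82, SE 0.18, adjusted p = 0.0401). Cxcr4 was at 53.1, 55.1, 78.6 and 85.1 CPM in WT and at 103, 112 and 97.7 CPM in P-Apex1KO (0.60, SE 0.13, adjusted p = 0.032). These calls depended on single mice. The count of members higher was 0 without WT replicate 1 or without P-Apex1KO replicate 1, 1 without WT replicate 2, 4 without P-Apex1KO replicate 3, 11 without P-Apex1KO replicate 2 and 15 without WT replicate 3. It was 2 without the sex term and 17 by DESeq2. Of 8 macrophage markers 4 were higher and 1 lower at 10-dpf, with sums of 721.5 to 856 CPM in WT and 795 to 919 CPM in P-Apex1KO. Of 8 T and NK cell markers 3 were higher, with sums of 18.1 to 28.8 CPM and 40.7 to 53.2 CPM. Of 8 neutrophil markers 0 were called, but all 8 had fold changes above 0 at an unadjusted p under 0.05 (median 0.92), with sums of 1150 to 2538 CPM in WT and 2533 to 4726 CPM in P-Apex1KO. All 3 adipocyte markers were higher, with sums of 17.9 to 24.4 CPM and 40.99 to 79.6 CPM. The part of these cells in the differences was not tested.

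Ackr4 was the member that was lower at 10- and at 14-dpf. At 10-dpf it was at 45.7, 37.6, 28.5 and 35.2 CPM in WT and at 19.7, 19.7 and 15.9 CPM in P-Apex1KO, a fall of 0.92 (log2, SE 0.13, adjusted p = 0.0129). At 14-dpf it was at 67.7, 55.8, 55.7 and 57.0 CPM in WT and at 26.8, 31.5 and 17.6 CPM in P-Apex1KO, where it fell by 1.40 on the log2 scale (SE 0.25, adjusted p = 0.0139). The groups did not overlap at either day. Its mean in WT was 6.52 CPM at 3-dpf and 11.8 CPM at 6-dpf, and it did not pass at those days. At 10-dpf the call was lost without P-Apex1KO replicate 1 (0 members lower), and 4 of 6 osteoblast and 4 of 6 osteoclast markers were lower beside it, whose part was not tested. The number of members lower was 2 without WT replicate 4 or P-Apex1KO replicate 2 at 10-dpf. At 14-dpf it was 2 without P-Apex1KO replicate 2 or 3 and 3 without P-Apex1KO replicate 1. Its ligand Ccl21a was at 3.41, 2.23, 3.86 and 2.84 CPM in WT and at 5.74, 6.01 and 16.3 CPM in P-Apex1KO at 14-dpf, with no overlap, and did not pass (1.48, SE 0.69, adjusted p = 0.219).

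At 14-dpf, 11 of 47 tested members were higher and 1 was lower with sex in the fit, where 4.28% of all genes were higher and 7.04% lower. Without sex, 24 of 44 tested members were higher and 3 lower, where 18.8% and 18.4% of all genes were, and the 12 members called with sex were all among them. Cxcl9 was at 6.38, 6.87, 5.45 and 6.86 CPM in WT and at 40.6, 27.4 and 37.0 CPM in P-Apex1KO (2.48, SE 0.27, adjusted p = 0.00202). Cxcl10 was at 1.07, 1.90, 0.891 and 1.36 CPM in WT and at 6.07, 6.01 and 7.75 CPM in P-Apex1KO (2.65, SE 0.46, adjusted p = 0.0115). Neither gene overlapped between the genotypes, and the female WT mouse, replicate 1, lay within the range of the male WT mice for Cxcl10 and for Cxcl9.

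Ccl12 was at 0.243, 0.836, 0.446 and 0.700 CPM in WT and at 2.35, 1.20 and 3.57 CPM in P-Apex1KO at 14-dpf (3.28, SE 0.81, adjusted p = 0.0395). The genotypes did not overlap, its female WT mouse was the lowest, and without sex the fold change was 2.11 (SE 0.46). Ccr9, a gut-homing receptor, was at 1.75, 2.04, 2.97 and 1.44 CPM in WT and at 6.14, 8.85 and 5.99 CPM in P-Apex1KO (2.02, SE 0.47, adjusted p = 0.0321). Cxcr6 was at 1.31, 0.789, 0.495 and 0.656 CPM in WT and at 3.36, 4.57 and 6.14 CPM in P-Apex1KO (1.86, SE 0.46, adjusted p = 0.0397), with no overlap. Its ligand Cxcl16 was at 11.8, 15.5, 15.3 and 14.6 CPM against 33.6, 21.98 and 40.8 CPM (1.47, SE 0.32, adjusted p = 0.0273).

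Other members higher at 14-dpf were Ackr1, Cxcr2, Cx3cr1 and Cxcr4, at log2 fold changes from 0.91 to 1.26. The count of 11 fell to 4 without WT replicate 2 and to 5 without WT replicate 3 or without WT replicate 4, and rose to 17 without P-Apex1KO replicate 2. WT replicate 1 differed from the other WT mice in chondrocyte markers, with a summed level of 860 CPM against 3485 to 5023 CPM, and all 6 of these markers were higher in P-Apex1KO with sex in the fit. Of 8 T and NK cell markers 1 was higher, with sums of 26.9 to 30.6 CPM in WT and 45.1 to 100.1 CPM in P-Apex1KO, and of 8 macrophage markers 5 were higher and 2 lower. The macrophage sums ran the other way from the number of markers called, from 1117 to 1255 CPM in WT and from 994 to 1115 CPM in P-Apex1KO, with every P-Apex1KO mouse below every WT mouse. All 8 neutrophil markers were higher in P-Apex1KO, with sums of 1162 to 1833 CPM in WT and 2465 to 3102 CPM in P-Apex1KO. Of 6 B cell markers 0 were called, but all 6 had fold changes above 0 at an unadjusted edgeR p under 0.05. Their median log2 fold change was 1.95. The B cell sums did not overlap, at 137.9 CPM or less in WT and 190.7 CPM or more in P-Apex1KO. All 6 osteoclast markers were lower, with sums of 7483 to 8591 CPM in WT and 1055 to 1957 CPM in P-Apex1KO. Of 6 osteoblast markers 3 were lower, with sums of 70200 to 95800 CPM and 17420 to 18960 CPM, and 3 of 6 endothelial markers were lower, with sums of 745.5 to 812 CPM and 483.5 to 572 CPM. All 3 erythroid markers were higher, with sums of 715 to 797 CPM in WT and 1649 to 1984 CPM in P-Apex1KO. The part of these cells in the chemokine differences was not tested.

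Members called only without sex included Ccl8, at 4.04, 2.46, 4.51 and 2.10 CPM in WT and 19.3, 14.1 and 42.2 CPM in P-Apex1KO at 14-dpf (2.99, SE 0.44, adjusted p = 0.00196), where the fit with sex gave 2.67 (SE 0.77, adjusted p = 0.073). In the same fit Ccl9 fell by 0.77 (log2, SE 0.17, adjusted p = 0.0101) and Ccr1, a receptor for it, fell by 0.80 (SE 0.16, adjusted p = 0.00567). With sex, Ccl9 was lower by the estimate of -0.71 (adjusted p = 0.132) and Ccr1 by that of -0.80 (adjusted p = 0.0724). Ccl9 was at 148, 157, 143 and 180 CPM in WT and at 120, 69.5 and 79.7 CPM in P-Apex1KO, with no overlap.

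Cxcl12, the member with the highest mean level per kilobase over all libraries, did not pass in a genotype comparison. At 3-dpf it was at 657, 876, 674 and 696 CPM in WT and at 389, 650, 689 and 903 CPM in the libraries labelled P-Apex1KO, at 6-dpf its mean was 606 ± 51.9 CPM in WT (SD, n = 5) and 686 ± 91.3 CPM in P-Apex1KO (SD, n = 3), and both days overlapped. At 14-dpf it was at 1957, 1386, 1458 and 1684 CPM in WT and at 563, 1263 and 455 CPM in P-Apex1KO, with no overlap (-1.33, SE 0.49, adjusted p = 0.135). Its receptor Cxcr4 was at 99.1, 89.2, 91.6, 96.4 and 75.3 CPM in WT and at 137, 117 and 126 CPM in P-Apex1KO at 6-dpf and at 53.9, 62.3, 75.6 and 74.5 CPM in WT and at 105, 132 and 89.1 CPM in P-Apex1KO at 14-dpf. It was separate between genotypes on those days and higher in P-Apex1KO at 6-, 10- and 14-dpf, by 0.52 (SE 0.11), 0.60 (SE 0.13) and 1.04 (SE 0.23) on the log2 scale. Ackr3, the scavenger receptor of Cxcl12, passed at no day.

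Cxcl14, a ligand made by stromal and epithelial cells, was at 184, 166, 106, 153 and 47.7 CPM in WT and at 289, 350 and 335 CPM in P-Apex1KO at 6-dpf (1.24, SE 0.34, adjusted p = 0.0475). The lowest P-Apex1KO mouse lay above every WT mouse, while at 10- and 14-dpf the genotypes overlapped and the gene did not pass. Ccl6, a macrophage ligand of Ccr1, was at 96.0, 52.9, 59.9, 45.1 and 37.4 CPM in WT and at 112, 102 and 127 CPM in P-Apex1KO at 6-dpf (1.07, SE 0.27, adjusted p = 0.0381) with no overlap. Ccl8 at 10-dpf was at 2.48, 2.56, 12.9 and 6.55 CPM in WT and at 17.3, 18 and 21.5 CPM in P-Apex1KO, with no overlap, and did not pass (1.70, SE 0.41, adjusted p = 0.0607). Ccl9, which promotes osteoclast formation, was at 156, 118, 73.5 and 96.9 CPM in WT and at 45.5, 68.6 and 52.4 CPM in P-Apex1KO at 10-dpf and did not pass (-0.90, SE 0.27, adjusted p = 0.105), with no overlap and P-Apex1KO lower, while at 6-dpf it overlapped (0.63, SE 0.21, adjusted p = 0.0828).

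**Figure D4:**
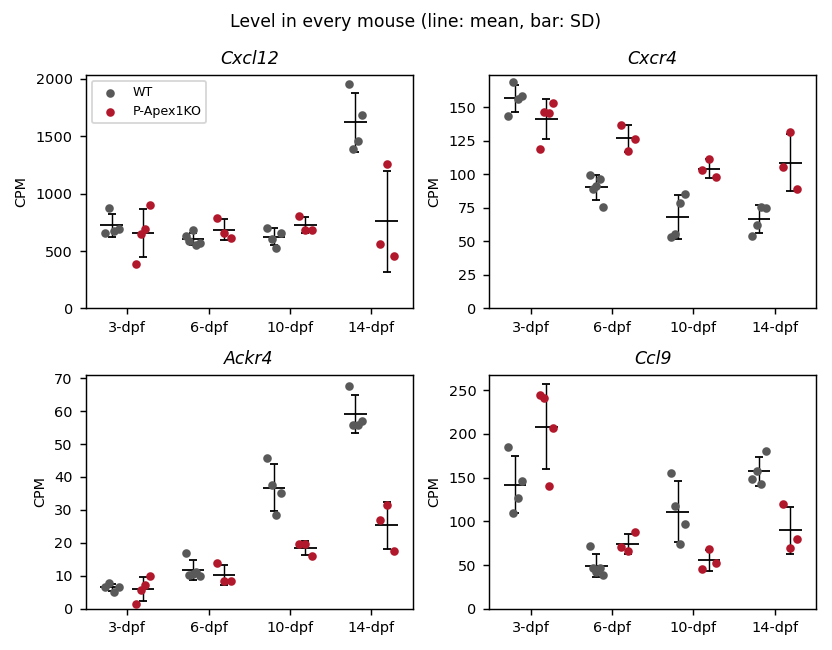
CPM of Cxcl12, its receptor Cxcr4, the scavenger Ackr4 and the ligand Ccl9 in every mouse by day (gray: WT, red: P-Apex1KO, line: mean, bar: SD). The mean of Ackr4 in WT is 36.7 CPM at 10-dpf and 59.1 CPM at 14-dpf, and its red points lie below every gray point at both days.

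Neighbouring genes were set side by side by their order on the chromosome. On chromosome 11, Ccl2, Ccl7, Ccl11, Ccl12 and Ccl8 lie in this order with Ccl1 in a stretch of 270 kb, and the 5 tested genes were all higher at 6-dpf, with log2 fold changes from 1.37 to 1.77. In the next run on the chromosome, of 139 kb, Ccl5 and Ccl6 were higher at 6-dpf, while Ccl9 (0.63), Ccl3 (0.36) and Ccl4 (0.49) did not pass. Genes within a run are not independent of each other, and no test over runs was made.

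**Figure D5:**
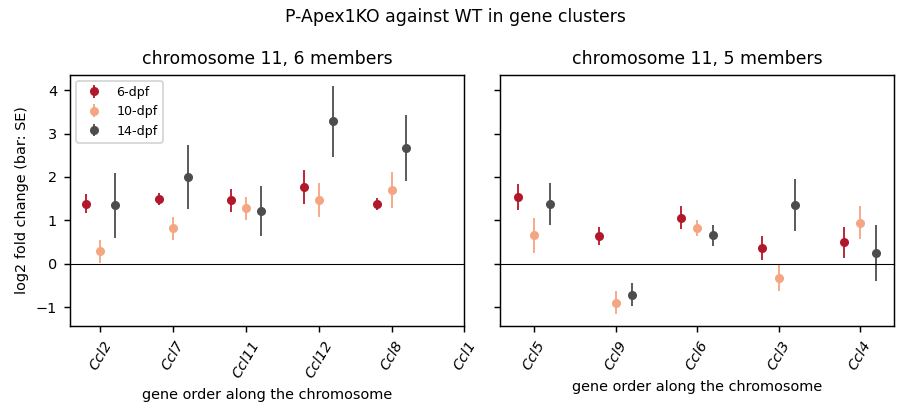
Log2 fold change of P-Apex1KO against WT at 6-, 10- and 14-dpf (points: estimate, lines: SE) for members in order along 2 runs of chromosome 11. The 5 tested genes of the first run lie above 0 at all 3 days, while Ccl9 lies above 0 at 6-dpf and below it at 10- and 14-dpf.

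Genes that act with chemokines were counted from lists, beside shares of all genes higher and lower of 5.31% and 5.61% at 6-dpf, 3.01% and 3.44% at 10-dpf and 4.28% and 7.04% at 14-dpf. Of 31 genes that signal behind chemokine receptors, 11 were higher at 6-dpf and 0 lower, among them Rgs1, a brake on receptor signalling (1.31, SE 0.31), and Dock2, which drives leukocyte migration (0.56, SE 0.15). At 10-dpf 8 were higher and 0 lower, and at 14-dpf 3 were higher and 2 lower, where 2 lower of 31 is near the share of all genes. Of 16 tested inducers, 5 were higher and 0 lower at 6-dpf, including Il1b (1.17, SE 0.24, adjusted p = 0.0178) and Il6 (1.26, SE 0.21, adjusted p = 0.00711). At 10-dpf 3 of 14 tested inducers were higher and 1 lower, and at 14-dpf 0 of 16 were higher and 1 lower.

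Of 10 tested proteases that process chemokines, Dpp4, which trims Cxcl10 and Cxcl12, was the one called at 6-dpf, where it was higher (0.91, SE 0.20). At 10-dpf 0 were higher and 2 lower, where Mmp9 fell by 2.05 (SE 0.31) and Mmp14 by 0.71 (SE 0.14), and at 14-dpf 2 were higher and 2 lower. Of 9 family genes outside the symbol rule, 1 was higher at 6-dpf, Rarres2, which encodes the attractant chemerin (1.01, SE 0.14, adjusted p = 0.00267). None was called at 10-dpf, where 7 had an unadjusted p under 0.05, and 3 were higher and 0 lower at 14-dpf.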

How the data were processed

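Raw gene counts of 30 callus libraries were used as deposited. Per the labels and methods, the authors prepared stranded total RNA libraries depleted of ribosomal RNA, aligned reads to mm39 with STAR 2.7.0d and made the counts of uniquely mapped reads with featureCounts. Each day was fitted with edgeR 4.0.16 in R 4.3.3 (TMM, filterByExpr, robust quasi-likelihood test, genotype and sex), and p-values were adjusted over all genes tested (threshold 0.05). The SE of a log2 fold change was derived from that test, as its absolute value divided by the square root of the F statistic. Changes between days came from joint fits of 3- and 6-dpf and of 10- and 14-dpf. DESeq2 was an alternative. Its filtering alpha was set to 0.05 after the counts at the default of 0.1 had been seen and set beside earlier results of these data, and both are given. The members and lists were chosen with earlier results of these data known. The members called are named, except 1 that enters the counts and is not reported here. Per-mouse values were planned for those without overlap, up to 8 per comparison, for the ligands and receptors paired with them, and for the 6 members highest by level, and the text gives the main partners and days. Of 200 genes simulated with a fold of 4, 200 were recovered at 3-, 6- and 10-dpf and 179 at 14-dpf. The changed genes had means above 1 CPM, and counts were drawn with a dispersion of 0.05 for every gene and no sex effect. The spread between the mice of these data was not simulated, so these numbers do not give the power of the real fits. Coordinates are those of GRCm39 (mm39). The planned search of protein motifs was not made, as protein sequences were not used here. Replicates are separate mice.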

Additional observations from a re-analysis of the deposited data

Results flagged for a closer look

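Of 135 groups of 4 or 5 mice examined, 9 held a mouse far from the others, where chance flags about 1 in 20 groups. In WT at 6-dpf, replicate 1 was the highest for Ackr4 (17.0 CPM, others 9.87 to 11.1), Ccl11 (3.88 CPM, others 2.04 to 2.56) and Ccl9 (71.6 CPM, others 38.9 to 46.6), and replicate 5 for Cxcl9 (29.3 CPM, others 2.80 to 5.00). In WT at 14-dpf, replicate 1 was the highest for Ackr4 (67.7 CPM, others 55.7 to 57.0) and Ccl11 (3.07 CPM, others 0.928 to 1.24), and replicate 2 the lowest for Ccr2 (89.2 CPM, others 98.5 to 100.4). In WT at 10-dpf, replicate 4 was the highest for Cxcl13 (0.135 CPM, others 0.0445 to 0.0540). Ccl8 reached 90.0 CPM in the library labelled P-Apex1KO replicate 1 at 3-dpf, against 25.3 to 36.04 CPM in the other 3.

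The genotype difference itself changed from 3- to 6-dpf, by the interaction term in edgeR, for Ccr7 (2.08, adjusted p = 0.022), Cxcl16 (1.13, adjusted p = 0.00289) and Cxcr4 (0.68, adjusted p = 0.027), all on the log2 scale. The reason was not tested.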

How the results depend on the processing

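No called value of a member turned its direction under any alternative run. The numbers of members higher (lower) with each mouse left out in turn ran from 0 to 1 (0 to 0) at 3-dpf, 10 to 22 (0 to 0) at 6-dpf, 0 to 15 (0 to 2) at 10-dpf and 4 to 17 (1 to 3) at 14-dpf. For the change in WT they ran from 1 to 3 (17 to 19) between 3- and 6-dpf and from 3 to 5 (0 to 0) between 10- and 14-dpf, and the changes of the genotype difference from 1 to 7 and from 0 to 3. The 14-dpf fit with sex could not be fitted without WT replicate 1. By DESeq2, 5 members were higher at 3-dpf, 17 higher and 2 lower at 10-dpf, 17 higher and 2 lower at 14-dpf and 5 higher in WT from 10- to 14-dpf, and the genotype difference changed in 5 and 1 members. At the default alpha, an alternative chosen after seeing the data, these were 4, 17 and 2, 16 and 2, 5, 5 and 1. DESeq2 without sex, also chosen after seeing the data, gave 5 higher at 3-dpf, 13 higher and 2 lower at 10-dpf and 27 higher and 4 lower at 14-dpf. Without the count filter, 1 member was higher at 3-dpf and 12 at 10-dpf. Without sex, 2 were higher at 10-dpf, and 24 higher and 3 lower at 14-dpf. Leaving out each mouse in that 14-dpf fit, chosen after seeing the data, gave 24 to 27 higher and 3 to 4 lower. Library size alone gave 5 changes of the genotype difference from 3- to 6-dpf, and moved the median of all genes by 0.20 at 6-dpf and 0.31 at 14-dpf. The replicate block gave 11 higher at 6-dpf and 3 lower at 14-dpf. Correlations of same-numbered mice ran from -0.251 to 0.392 and not every pair was over 0.1. At 3-dpf they were all above 0 (0.392, 0.0616, 0.125 and 0.117). Whether same-numbered mice share more than a number was not tested. Of 26 mice with a same-numbered partner, 9 correlated best with it. The cause of these shifts was not tested. Groups of 3 to 5 mice limit the precision, and calls near the threshold moved with single mice.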
